A study of Mus musculus with 12 samples.

Results

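The castration response of sorted luminal cells of the mouse prostate was measured as 3 arrays of castrated against 3 arrays of intact mice, 6 of the 12 arrays of the series. Members were chosen by array title alone, with earlier results of these data known. The comparison ran over 14645 genes, each represented by a single Affymetrix probe set. Probe sets were kept when their signal lay above the 40th percentile of the array on at least 3 of the 12 arrays, and the brightest probe set stood for a gene. The mice were adult C57BL/6 males with no transgene or other allele named in the labels. They were castrated at 8 weeks of age by removal of the testes or left intact, and prostates were taken 4 weeks after surgery. Cells of the dissociated tissue were sorted for EpCAM, found on the surface of epithelia, and against lineage markers. The level of CD49f, an integrin chain, then parted luminal (low) from basal (high) cells. The 6 basal arrays, 3 castrated and 3 intact, served for comparison. The titles call the 3 arrays of a group biological replicates, and how many mice entered each array is not given in the sources used here.

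Luminal cells line the prostatic ducts and secrete the proteins of the prostatic fluid. They depend on testicular androgen, which acts through the androgen receptor, a hormone-activated transcription factor that switches on secretory protein genes. After castration the gland regresses, and the luminal cells that remain are small and secrete little. Heavy secretion needs a large endoplasmic reticulum, where proteins are translocated, folded and glycosylated before export. The residual cells can rebuild the gland when androgen returns, which makes their state without androgen of interest in its own right.

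By the sums of marker lists the sorted cells matched their label, though not by every single marker. The summed signal of 17 luminal identity genes lay between 204093 and 209565 on the intact and between 174594 and 218141 on the castrated luminal arrays, against 99846 to 154535 on the basal arrays. The sum of 19 basal identity genes was 16388 to 18633 on intact and 15174 to 17277 on castrated luminal arrays, and 125174 to 237101 on basal arrays. Krt8, a keratin of simple epithelia, gave signals of 27155, 22417 and 21538 on the intact and 24271, 28991 and 24004 on the castrated arrays. Epcam, the protein used in the sort, gave 24880, 23567 and 22421 on the intact and 21067, 26424 and 20854 on the castrated arrays. Krt5, the keratin that defines basal cells, gave only 19.96, 191 and 489 on the intact and 39.3, 5.89 and 62.7 on the castrated arrays. Foxa1, a transcription factor in the luminal list, went against its list. It gave 7551, 9194 and 5884 on the intact basal arrays and 3265, 3118 and 2792 on the intact luminal arrays.

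Fibroblast and seminal vesicle markers were present on the intact luminal arrays and lower on the castrated ones. The sum of 14 fibroblast markers was 10318 to 18504 on intact and 1003 to 1357 on castrated luminal arrays, and 24956 to 58616 on basal arrays. The sum of 6 genes of the seminal vesicle, a neighbouring gland, was 238651 to 394826 on intact and 21239 to 40350 on castrated luminal arrays. Smooth muscle markers (8 genes) summed to 696 to 2695 and to 249 to 475, and endothelial markers (9 genes) to 534 to 1429 and to 187 to 368. The leukocyte sum (11 genes) of 10228 to 13089 on intact arrays was mostly Cd52, a small surface protein of leukocytes and of the male genital tract, with 9749, 9602 and 11519 on the intact and 447, 484 and 28.5 on the castrated arrays. Ptprc, the surface antigen that all leukocytes share, lay at or near background with 36.3, 57.1 and 32.9 on the intact and 9.22, 11.99 and 19.6 on the castrated arrays. In such bulk samples, fewer cells of a type and less RNA per cell cannot be told apart. The plot of marker sums shows these values on every array.

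**Figure D1:**
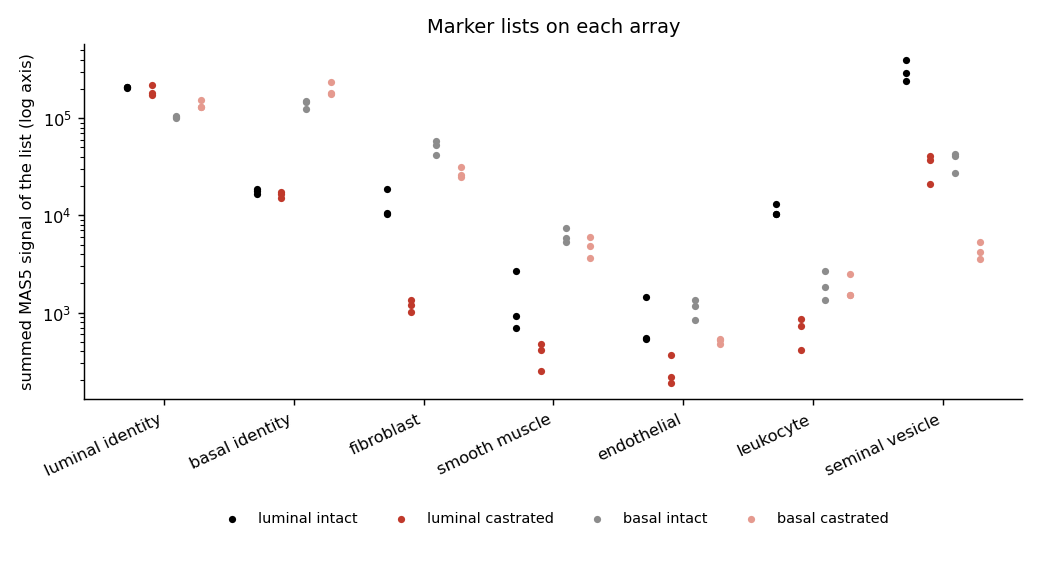
Summed MAS5 signal (log axis) of 7 marker lists on each of the 12 arrays, a point per array. The luminal and basal identity sums part luminal from basal arrays in both conditions, while the fibroblast, leukocyte and seminal vesicle sums are lower on all 3 castrated luminal arrays than on any intact luminal array.

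At an adjusted p below 0.05, 858 of the 14645 genes passed (5.86%), 424 higher in castrated cells (2.90%) and 434 lower (2.96%). These shares are the background for every list count below. Adjusted p-values throughout are from limma with Benjamini-Hochberg adjustment over all genes tested. Changes are castrated minus intact on the scale of log2(signal + 16), for 3 and 3 arrays. The standard errors beside them rest on a spread pooled over all 12 arrays, the basal ones included, and not on the luminal arrays alone. Of the genes that passed, 371 were at least 2-fold higher and 367 at least 2-fold lower. At least 8-fold differences were found for 69 higher and 102 lower genes. The 3 castrated and 3 intact arrays did not overlap for 855 of the 858, against 4650 (31.8%) of all genes tested. Lack of overlap stated below for a gene that passed therefore adds little to its call. The median change over all genes was -0.09. Median centring of the arrays moved that median to 0.29 and the calls to 1021 higher and 252 lower. The balance of rises and falls thus rests on the scaling. Counts after median centring are given for only part of the lists, and a list without them need not be stable to it. Of the 858 genes, 230 passed under each of 25 single changes to the processing or the array set, 109 higher and 121 lower. The 61 gene lists were chosen with earlier results of these data known, so their counts are description and no test of an excess.

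The castrated luminal arrays were more alike than those of the other groups, with a median standard deviation per gene of 0.32 log2 units against 0.58 for intact luminal arrays. The third intact array stood apart from the other two and had the lowest weight, 0.363, in a fit that weights arrays by their spread. Without it 564 genes passed, 262 higher and 302 lower. Leaving out castrated array 1, 2 or 3 left 444, 433 and 401 genes.

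**Figure D2:**
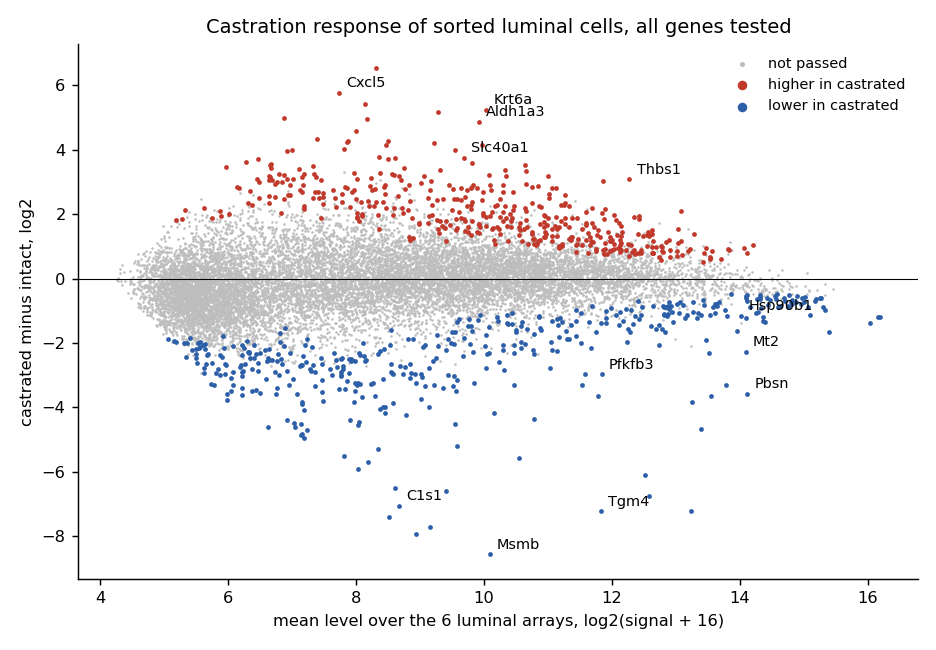
Change after castration (castrated minus intact, log2, y axis) against the mean level over the 6 luminal arrays (log2 of signal + 16, x axis) for all 14645 genes, a point per gene. The 424 genes that passed as higher are red and the 434 that passed as lower are blue, and the deepest falls are secreted proteins such as Msmb and Tgm4.

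Secreted protein genes were among the deepest falls. Of 20 measured prostatic secreted products, 14 fell and none rose, with a median change of -3.38 against -0.09 over all genes, and 8 of the 14 calls held under all 25 changes to the processing. Msmb, beta-microseminoprotein, gave 40816, 41762 and 5532 on the intact and 26.7, 51.04 and 45.4 on the castrated arrays. Its change was -8.56 ± 0.93 (adjusted p = 3.13e-05), and the third intact array was the lowest of the intact group, still far above every castrated array. Tgm4, the prostate transglutaminase that cross-links the seminal plug, gave 40890, 36554 and 57548 on the intact and 304, 308 and 239 on the castrated arrays, with a change of -7.21 ± 0.43 (adjusted p = 3.24e-08). Pbsn (probasin), the classical androgen-driven gene of the rodent prostate, gave 57928, 56237 and 70160 on the intact and 5953, 4690 and 4837 on the castrated arrays, with a change of -3.57 ± 0.44 (adjusted p = 0.000113). The intact and castrated arrays did not overlap for any of these 3 genes. Fcgbp, a mucus-associated protein that binds the Fc part of IgG, changed by -6.74 ± 0.62 (adjusted p = 5e-06). Azgp1, a zinc-binding secreted glycoprotein, changed by -2.77 ± 0.52 (adjusted p = 0.00359) and Ceacam10 by -3.99 ± 0.74 (adjusted p = 0.00331).

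Several other genes of small secreted proteins fell, and Pate6 rose. Pate14, a small cysteine-rich protein, gave 10558, 7578 and 5585 on the intact and 21.7, 1.78 and 30.3 on the castrated arrays. Its castrated arrays all lay under the 40th percentile, so it was at least 153-fold lower (adjusted p = 1.04e-06). The beta-defensins are antimicrobial peptides of mucosal surfaces, and this family was picked after values were seen. Of 10 measured members, 4 fell and none rose. Defb42 gave 8197, 5970 and 6055 on the intact and 97.9, 50 and 27.3 on the castrated arrays and Defb13 gave 1598, 1568 and 2738 on the intact and 117, 72.3 and 73.98 on the castrated arrays, both without overlap, with changes of -6.60 ± 0.87 and -4.23 ± 0.64 (adjusted p = 0.000203 and 0.00069). Spink1, a Kazal-type trypsin inhibitor, gave 75381, 74213 and 83.4 on the intact and 19.1, 34.9 and 17.5 on the castrated arrays. Its change of -7.72 ± 2.12 (adjusted p = 0.0396) rested on intact arrays 1 and 2, since array 3 was near the castrated level, and leaving out any luminal array other than intact array 3 ended the call (adjusted p of 0.105 to 0.155), as did leaving out basal castrated array 1 or 2 (0.0533 and 0.0517). Wfdc3, a whey-acidic-protein-type inhibitor, had the same pattern among intact arrays, with 6709, 6126 and 188 on the intact and 32.8, 64.2 and 20.4 on the castrated arrays and a change of -5.28 ± 1.11 (adjusted p = 0.00793). Pate6, which belongs to the family of Pate14 by its symbol, went the other way, with 247, 149 and 133 on the intact and 4576, 3641 and 1559 on the castrated arrays and a change of 4.00 ± 0.56 (adjusted p = 0.000358).

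The 6 measured secretory genes of the seminal vesicle all fell (median -4.65), and 5 of the calls held under all 25 changes. Svs5 gave 95842, 107760 and 157703 on the intact and 1094, 1012 and 414 on the castrated arrays, a change of -7.22 ± 0.52 (adjusted p = 3.13e-07). Svs2 gave 38838, 38000 and 59701 on the intact and 5315, 6135 and 2712 on the castrated arrays, a change of -3.32 ± 0.57 (adjusted p = 0.00181), and its basal arrays fell further, by -7.53. Svs6 was at least 94.9-fold lower (adjusted p = 8.8e-05), with its castrated arrays under the 40th percentile. Whether these transcripts came from luminal cells or from seminal vesicle RNA in the sort was not tested.

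The promoter of Pbsn is shown because it is the textbook target of the androgen receptor. The 250 bases before its start site lie on the minus strand of GRCm38.p6, chrX:77853501-77853750, and are given from RefSeq, 5′ to 3′. Capitals mark the only match to TGTTCT, an arm of the receptor's paired binding site, here on the opposite strand 95 to 90 bases before the start. The full paired site was not searched for, so the capitals do not locate it.
Pbsn: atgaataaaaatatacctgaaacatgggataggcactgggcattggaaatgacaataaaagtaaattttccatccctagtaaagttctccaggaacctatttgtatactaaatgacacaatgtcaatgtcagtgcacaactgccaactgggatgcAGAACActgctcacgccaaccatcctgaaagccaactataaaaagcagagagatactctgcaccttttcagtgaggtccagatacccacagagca
Both strands were searched in the promoters of the 11725 tested genes that had an entry. The letters TGTTCT were found in 11.4% of all of them, in 7.84% of 319 genes that rose and in 13% of 338 that fell. Among the 13 secreted products that fell and had an entry, 5 held them (Ceacam10, Pbsn, Svs3a, Svs5 and Svs6).

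Endoplasmic reticulum folding genes fell by smaller amounts. Of 25 measured, 12 fell and none rose, with a median of -1.09, and the change lay below 0 for all 25. After median centring 5 of the 12 still passed, and the median was -0.71 with the median of all genes at 0.29. Hsp90b1, the chaperone also called GRP94, gave 22722, 25685 and 25719 on the intact and 11823, 10822 and 10563 on the castrated arrays, a change of -1.16 ± 0.15 (adjusted p = 0.000213). Hspa5, the chaperone BiP, gave 34245, 34436 and 30883 on the intact and 12331, 18615 and 10454 on the castrated arrays, a change of -1.31 ± 0.19 (adjusted p = 0.000498). Its most variable probe set gave -1.16 with an adjusted p of 0.393. Creld2, a folding factor, changed by -2.06 ± 0.35 (adjusted p = 0.00178) and Manf, a secreted factor of the stressed reticulum, by -1.33 ± 0.25 (adjusted p = 0.00359). The castrated arrays lay below all intact arrays for each of these 4 genes. Xbp1, the transcription factor that enlarges the reticulum in secretory cells, gave 6508, 5453 and 5391 on the intact and 5856, 4607 and 6771 on the castrated arrays, and its level did not pass the test (-0.02 ± 0.32 (adjusted p = 0.981)).

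At other steps of secretion few genes passed. Signal recognition and translocon genes gave 4 falls among 20 (Sec61a1, Sec61b, Srpr and Ssr3, median -0.54), none of which held after median centring. The list had 2 falls without intact array 3. Sec61a1 was lost without any luminal array other than intact array 2 (adjusted p from 0.0585 to 0.11), and Sec61b without any other than castrated array 1 (0.0561 to 0.13). Srpr, a signal recognition receptor subunit, changed by -1.08 ± 0.19 (adjusted p = 0.00251), and by 0.37 with its most variable probe set. Of 26 genes of N-glycosylation 2 fell. Man1a, a Golgi mannosidase that trims N-glycans, gave 7215, 7090 and 6335 on the intact and 1802, 1405 and 1409 on the castrated arrays, a change of -2.16 ± 0.29 (adjusted p = 0.000214), and Stt3b, a catalytic subunit of the oligosaccharyltransferase, changed by -0.98 ± 0.25 (adjusted p = 0.0241). Stt3b did not pass without castrated array 1 or 3 (adjusted p = 0.0749 and 0.15) or without intact array 1 or 2 (0.0566 and 0.0922). Among 32 genes of transport between reticulum and Golgi, only Copb2 fell (3.12%, near the background of 5.86%), and none did without intact array 3. No gene of mucin-type glycosylation passed among 15.

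The promoter of Hsp90b1 is shown because it holds the ER stress element in a pair of copies. This element, CCAAT, then 9 bases, then CCACG, is bound under unfolded protein stress by the factor ATF6 together with NF-Y. The 250 bases before the start lie on the minus strand of GRCm38.p6, chr10:86705445-86705694, and capitals mark the copies, 212 to 194 bases before the start and, on the opposite strand, 107 to 89 bases before it.
Hsp90b1: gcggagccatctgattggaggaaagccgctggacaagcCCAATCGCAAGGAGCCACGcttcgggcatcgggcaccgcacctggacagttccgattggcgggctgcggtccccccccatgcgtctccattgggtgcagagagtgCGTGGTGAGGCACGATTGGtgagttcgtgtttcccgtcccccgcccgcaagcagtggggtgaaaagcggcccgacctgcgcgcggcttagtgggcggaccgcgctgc
The element was rare, in 16 of the 11725 promoters (0.136%). It was in none of the 319 promoters of genes that rose and in 7 of 338 of genes that fell (2.07%). Of the 10 ER folding genes that fell and had an entry, 5 held it (Calr, Creld2, Dnajc3, Hsp90b1 and Hspa5).

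Regulators known to answer androgen moved in both directions. Of 19 measured, 2 fell and 4 rose. Fkbp5, a co-chaperone of steroid receptors, gave 3440, 4468 and 2529 on the intact and 472, 329 and 616 on the castrated arrays, a change of -2.84 ± 0.42 (adjusted p = 0.000523). Zbtb16, the transcriptional repressor PLZF, gave 1295, 1866 and 2663 on the intact and 345, 327 and 345 on the castrated arrays, a change of -2.40 ± 0.38 (adjusted p = 0.000911). Pmepa1, a membrane protein that dampens TGF-beta signalling, rose, with 1888, 1697 and 661 on the intact and 10212, 10336 and 11366 on the castrated arrays, a change of 3.03 ± 0.31 (adjusted p = 1.53e-05). Ndrg1, a stress- and differentiation-linked gene, changed by 1.64 ± 0.19 (adjusted p = 5.76e-05) and Steap4, a metalloreductase, by 2.25 ± 0.28 (adjusted p = 0.000117). The most variable probe sets of Fkbp5, Ndrg1 and Steap4 kept the direction without passing (adjusted p = 0.139, 0.17 and 0.435). Steroid receptors and steroid-converting enzymes showed 1 fall among 17 (Sult1a1), and nuclear receptors and coregulators 1 fall among 24, shares of 5.88% and 4.17% beside the background of 5.86%. Without intact array 3, and also after median centring, the second of these lists had 1 rise and no fall.

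Lineage lists held 1 to 3 calls each. Among 17 luminal identity genes 1 rose and 1 fell (11.8%, beside the background of 5.86%). Without intact array 3 and after median centring the fall was lost, and under quantile normalization 5 rose and none fell. Among 19 basal identity genes 2 rose and 1 fell (15.8%), and without intact array 3 the counts were 3 and none. Among 12 genes of proximal luminal cells 2 rose (16.7%), Aldh1a3 and Ly6d. Ly6d did not pass without castrated array 2 or 3 (adjusted p = 0.0993 and 0.128) or intact array 1 or 2 (0.0581 and 0.0957), nor with the luminal arrays fitted alone (0.0604). Krt18, the partner of keratin 8, gave 38655, 40400 and 50010 on the intact and 32702, 40003 and 28227 on the castrated arrays, without passing (adjusted p = 0.21). Foxa1, a pioneer factor counted in the luminal list, gave 3265, 3118 and 2792 on the intact and 4045, 4151 and 3853 on the castrated arrays. Its groups did not overlap, as for 31.8% of all genes tested, and Foxa1 did not pass (adjusted p = 0.386). Hoxb13, the homeobox factor of the prostate, gave 3283, 3334 and 2662 on the intact and 2146, 1168 and 1546 on the castrated arrays, without overlap but without passing (-0.96 ± 0.48 (adjusted p = 0.287)). The basal arrays, which enter that standard error, gave 854, 1460 and 2943 (intact) and 168, 394 and 102 (castrated). Trp63 (p63), the master factor of basal cells, gave low signals of 119, 97.4 and 216 on the intact and 53.4, 7.78 and 23.7 on the castrated luminal arrays. The basal arrays gave 7017 to 12963. From its low luminal level Trp63 changed by -1.92 ± 0.43 (adjusted p = 0.0121). It did not pass without castrated array 2 or intact array 3 (adjusted p = 0.0706 and 0.0516), nor with the luminal arrays fitted alone (0.0716). The mean of its probe sets gave -0.73 (adjusted p = 0.313). Krt14, another basal keratin, did not pass (-0.63 ± 0.48 (adjusted p = 0.524)). Psca, a surface antigen of proximal luminal cells, gave 23629, 28858 and 11466 on the intact and 4815, 4999 and 4220 on the castrated arrays, without overlap but without passing (-2.09 ± 1.16 (adjusted p = 0.347)). The basal arrays, which enter its standard error, gave 1068, 560 and 13.8 (intact) and 689, 2156 and 31 (castrated).

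Of 26 keratins and cornified envelope genes 5 rose and none fell, and 9 rose under quantile normalization. Krt6a, a keratin of stressed and regenerating epithelia, gave 436, 531 and 3.86 on the intact and 7211, 5150 and 7065 on the castrated arrays, a change of 5.24 ± 0.88 (adjusted p = 0.00162). Krt23, a type I keratin, gave 2471, 1680 and 1354 on the intact and 7205, 8923 and 7887 on the castrated arrays and changed by 2.15 ± 0.44 (adjusted p = 0.00644). Ivl (involucrin), a cornified envelope precursor, gave 83.9, 134 and 44.8 on the intact and 839, 938 and 284 on the castrated arrays and changed by 2.69 ± 0.55 (adjusted p = 0.00633). The castrated arrays lay above all intact arrays for these 3 genes. Among 39 developmental transcription factors, 4 rose and 2 fell, and 7 and 1 did so after median centring. Runx1, a Runt-domain factor, gave 3035, 3193 and 1155 on the intact and 7890, 7577 and 8573 on the castrated arrays, a change of 1.83 ± 0.29 (adjusted p = 0.000952). Sox9, a progenitor-associated factor, gave 9083, 8477 and 7077 on the intact and 15499, 15156 and 16759 on the castrated arrays, a change of 0.95 ± 0.17 (adjusted p = 0.00285), and the mean of its probe sets gave 0.66 (adjusted p = 0.177). Klf5, a Krüppel-like factor, changed by 1.11 ± 0.29 (adjusted p = 0.03), but its probe sets disagreed, with -1.13 for the most variable. Without castrated array 1, 2 or 3 its adjusted p was 0.119, 0.0781 and 0.103, and without intact array 3 it was 0.0764.

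Transcripts of some growth factor ligands, receptors and regulators changed, and signalling itself was not measured. Of 26 ErbB, FGF and HGF pathway genes 5 rose and 2 fell. Without intact array 3 the counts were 4 and none, and after median centring 6 and none. Met, the receptor of hepatocyte growth factor, gave 2662, 1930 and 1373 on the intact and 4793, 5131 and 5622 on the castrated arrays, a change of 1.42 ± 0.26 (adjusted p = 0.00262). Dusp6, a phosphatase that is induced by and restrains ERK signalling, gave 991, 1067 and 565 on the intact and 2273, 2682 and 2768 on the castrated arrays, a change of 1.59 ± 0.26 (adjusted p = 0.00121). Egfr, the receptor of epidermal growth factor, gave 145, 62.4 and 1.76 on the intact and 484, 325 and 754 on the castrated arrays, a change of 3.06 ± 0.65 (adjusted p = 0.00817), which did not pass without castrated array 3 (2.76, adjusted p = 0.0586). Btc (betacellulin), a ligand of that receptor, gave 104, 116 and 143 on the intact and 1358, 997 and 1298 on the castrated arrays, a change of 3.17 ± 0.69 (adjusted p = 0.0097), with adjusted p of 0.0501 without castrated array 1 and 0.0505 without castrated array 3. Egf, the founding ligand of the family, gave 3992, 3108 and 2500 on the intact and 851, 787 and 351 on the castrated arrays and changed by -2.32 ± 0.62 (adjusted p = 0.0352). Its groups did not overlap, yet leaving out any luminal array ended its call (adjusted p from 0.0684 to 0.19), as did a block for the replicate number (0.0527).

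The insulin-like growth factor list had 4 falls and no rise among 23 and a median of -0.55. Igf1, the ligand made mainly by stroma, gave 303, 340.1 and 1851 on the intact and 57.4, 24.9 and 32.1 on the castrated arrays, a change of -3.51 ± 0.74 (adjusted p = 0.00836). Igfbp4 and Igfbp5, which bind and buffer the ligand, gave 591, 543 and 2706 on the intact and 97.4, 35.6 and 60.2 on the castrated arrays, and 3738, 3564 and 4532 on the intact and 379.8, 1060 and 1117 on the castrated arrays, respectively. Their changes were -3.67 ± 0.53 and -2.33 ± 0.35 (adjusted p = 0.000408 and 0.00073). For Igf1 and Igfbp4 the third intact array was several times higher than the other two, as was the fibroblast marker sum on that array (18504 against 10318 and 10443). The part of stromal RNA in these falls was not tested.

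In the TGF-beta and BMP list 4 genes rose and 4 fell among 31. Id3, an inhibitor of helix-loop-helix factors and a direct BMP target, gave 3093, 3824 and 6013 on the intact and 1300, 869 and 1017 on the castrated arrays, a change of -1.97 ± 0.25 (adjusted p = 0.000132). Bmpr1b, a type I BMP receptor, gave 5140, 5095 and 3595 on the intact and 984, 890.2 and 1058 on the castrated arrays, a change of -2.20 ± 0.46 (adjusted p = 0.00721). The rises (Inhbb, Smad2, Smad3 and Tgif1) were each lost when single arrays were left out. Without intact array 3 the counts were 2 and 3, and after median centring 10 and 4. In the Notch list 1 gene rose among 19, and 5 did after median centring. The call was for Maml2, a co-activator of Notch, with 59.7, 102 and 3.55 on the intact and 403, 560 and 478 on the castrated arrays and a change of 3.14 ± 0.58 (adjusted p = 0.00307). The Wnt list gave 1 rise and 2 falls among 28, and 1 rise and no fall without intact array 3. Cytokine genes of growth control included Lif, the interleukin-6 family cytokine, with 62.5, 3.11 and 84.3 on the intact and 1183, 959.7 and 858 on the castrated arrays and a change of 4.24 ± 0.48 (adjusted p = 4.76e-05).

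More adhesion genes rose than fell. Of 26 integrins and matrix adhesion genes 6 rose and 1 fell, and 4 of these calls held under all 25 changes. Itga2, the collagen-binding integrin chain, gave 32, 353 and 42.1 on the intact and 1169, 1487 and 1244 on the castrated arrays, a change of 3.70 ± 0.65 (adjusted p = 0.00213). Itgb6, which pairs with Itgav to activate latent TGF-beta, gave 879, 649 and 119 on the intact and 3760, 3385 and 4513 on the castrated arrays, a change of 3.17 ± 0.52 (adjusted p = 0.00141). Cd44, the hyaluronan receptor, gave 901, 566 and 1090 on the intact and 5347, 5785 and 6618 on the castrated arrays, a change of 2.82 ± 0.33 (adjusted p = 6.33e-05). Sdc1 (syndecan), a heparan sulphate proteoglycan of epithelia, gave 747, 1402 and 271 on the intact and 6254, 6605 and 5521 on the castrated arrays, a change of 3.18 ± 0.40 (adjusted p = 0.000137). Thbs1 (thrombospondin), a matrix protein and activator of TGF-beta, gave 1698, 1844 and 1531 on the intact and 12766, 16292 and 14164 on the castrated arrays, a change of 3.08 ± 0.19 (adjusted p = 3.24e-08). For each of these 5 genes the lowest castrated array was above the highest intact array. Itgb6, Cd44, Sdc1 and Thbs1 also differed from basal cells in the test of the difference (adjusted p = 0.035, 0.017, 0.00558 and 0.0039).

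Among 24 matrix proteases and inhibitors 3 rose and 2 fell, 2 and 3 did so without intact array 3, and 6 and 1 after median centring. The junction and polarity genes that rose did so by smaller amounts. Of 30 junction genes 5 rose and none fell (median 0.54), and without intact array 3 the count was 2, and after median centring 14. Cdh1 (E-cadherin) gave 10325, 9995 and 6987 on the intact and 14198, 17887 and 17320 on the castrated arrays, a change of 0.87 ± 0.18 (adjusted p = 0.00703), and without an intensity trend its adjusted p was 0.136. Of 30 genes of actin, polarity and apical trafficking 4 rose (median 0.51), and 8 after median centring. Pard6b, a core polarity protein, gave 6038, 6306 and 3258 on the intact and 11449, 11508 and 11406 on the castrated arrays, a change of 1.2 ± 0.26 (adjusted p = 0.0102), and without an intensity trend its adjusted p was 0.0785. The annexins, calcium-dependent membrane-binding proteins, were picked after values were seen. Of 10 measured, 5 rose and 1 fell (median 0.79). Anxa5 gave 4016, 4344 and 2697 on the intact and 8553, 8222 and 10342 on the castrated arrays, a change of 1.31 ± 0.21 (adjusted p = 0.00124), and Anxa3 changed by 1.91 ± 0.38 (adjusted p = 0.00564).

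**Figure D3:**
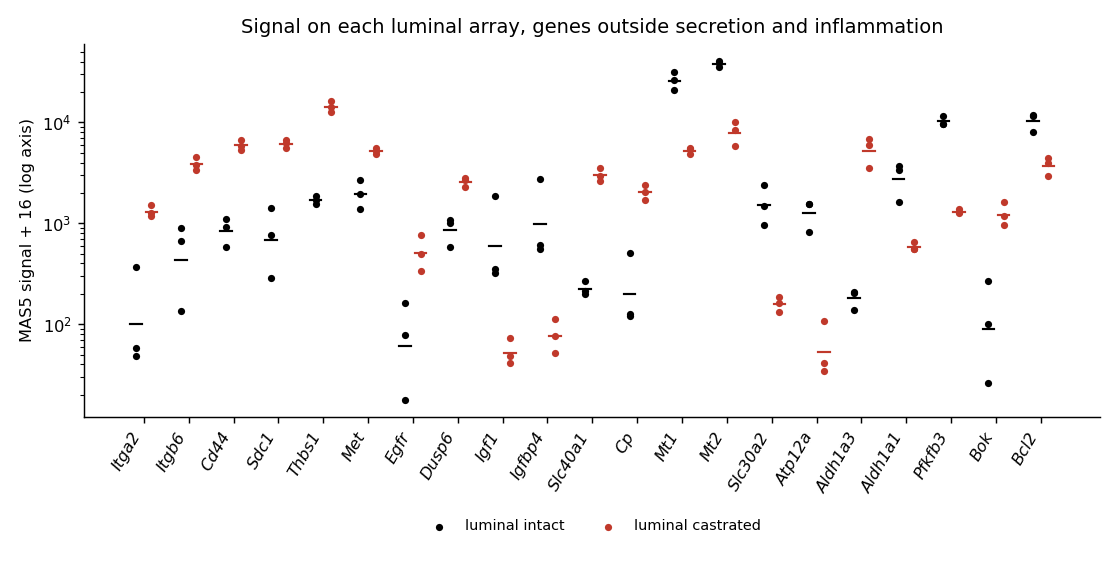
MAS5 signal + 16 (log axis) of 21 genes of adhesion, growth factor, metal, retinoid, glycolytic and apoptosis lists on each luminal array, black for intact and red for castrated, with a bar at the mean of the log2 values. The 3 red and 3 black points of each gene do not overlap, and the black points of Itga2, Egfr and Bok spread far more than the red ones.

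Among chemoattractant and NF-kB-linked genes, rises outnumbered falls. Of 28 chemokines and cytokines 8 rose and 3 fell, and of 19 NF-kB subunits, inhibitors and targets 5 rose and none fell, with medians of 0.67 and 0.68. Without intact array 3 the first list had 9 rises and 1 fall. After median centring it had 11 rises and 1 fall, and the second list had 8 rises. Cxcl5, a neutrophil chemokine, gave 6.61, 2.90 and 39.9 on the intact and 1310, 1586 and 1770 on the castrated arrays. Its intact arrays all lay under the 40th percentile, so the rise was at least 23.01-fold (adjusted p = 1.42e-05). Cxcl2 and Cxcl1, chemokines of the same receptor, gave 916, 618 and 204 on the intact and 4043, 5794 and 5785 on the castrated arrays, and 3767, 3257 and 4824 on the intact and 10028, 12979 and 7959 on the castrated arrays, with changes of 3.35 ± 0.50 and 1.37 ± 0.21 (adjusted p = 0.000575 and 0.000787). Il1rn, the interleukin-1 receptor antagonist, gave 98.7, 143 and 132 on the intact and 2632, 2420 and 2534 on the castrated arrays, a change of 4.19 ± 0.52 (adjusted p = 0.000125). Tnfsf10, the death ligand TRAIL, changed by 3.24 ± 0.60 (adjusted p = 0.00331). Tnfaip2, a TNF-induced gene, gave 691, 278 and 290.1 on the intact and 3333, 5331 and 4020 on the castrated arrays, a change of 3.38 ± 0.60 (adjusted p = 0.00226), and Tnip1, an inhibitor of NF-kB signalling, changed by 1.97 ± 0.35 (adjusted p = 0.0022). The leukocyte marker sum was 412 to 858 on the castrated arrays, and the part of leukocyte RNA in these rises was not tested.

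Of 17 antigen presentation genes 2 rose and 1 fell, with a median of 1.25 and 15 of the 17 changes above 0. The counts were 1 and 1 without intact array 3, and 7 and 1 after median centring. H2-Aa, a class II antigen chain, gave 209, 18.1 and 3.95 on the intact and 1178, 1593 and 567 on the castrated arrays, a change of 4.28 ± 0.81 (adjusted p = 0.00384), whereas B2m, the light chain of class I, gave 49230, 52212 and 52710 on the intact and 25326, 25244 and 20260 on the castrated arrays, a change of -1.13 ± 0.13 (adjusted p = 5.23e-05). Reg3g, an antibacterial lectin, rose at least 9.76-fold (adjusted p = 0.000344), with 10.8, 1.76 and 3.26 on the intact and 941, 603 and 472 on the castrated arrays. C1s1 and C1ra, the proteases of complement component C1, were among the deepest falls outside secretion. C1s1 gave 5259, 3072 and 6418 on the intact and 9.39, 51.1 and 10.5 on the castrated arrays, a change of -7.05 ± 0.61 (adjusted p = 2.53e-06). C1ra was at least 30-fold lower (adjusted p = 0.000106). Serping1, the inhibitor of these proteases, changed by -3.31 ± 0.64 (adjusted p = 0.00432). Of 21 interferon-stimulated genes 1 rose (4.76%, near the background of 5.86%), and 4 after median centring. Of 20 immediate early genes of the AP-1 group 3 rose and 3 fell, 3 and 1 did so without intact array 3, and 4 and none after median centring.

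The promoters of Cxcl2 and Lif are shown because they hold matches to the motifs of NF-kB and of AP-1, the factors that drive many inflammatory genes. Capitals mark GGGNNTTTC in Cxcl2 (chr5:90903649-90903898, plus strand, 97 to 89 and 78 to 70 bases before the start) and TGANTCA in Lif (chr11:4257318-4257567, plus strand, 228 to 222 bases before the start), from RefSeq on GRCm38.p6.
Cxcl2: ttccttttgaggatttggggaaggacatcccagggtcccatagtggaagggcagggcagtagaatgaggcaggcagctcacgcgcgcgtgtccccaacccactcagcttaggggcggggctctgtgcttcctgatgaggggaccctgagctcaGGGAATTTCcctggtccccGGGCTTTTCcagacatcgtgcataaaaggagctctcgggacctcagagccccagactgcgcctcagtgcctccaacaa
Lif: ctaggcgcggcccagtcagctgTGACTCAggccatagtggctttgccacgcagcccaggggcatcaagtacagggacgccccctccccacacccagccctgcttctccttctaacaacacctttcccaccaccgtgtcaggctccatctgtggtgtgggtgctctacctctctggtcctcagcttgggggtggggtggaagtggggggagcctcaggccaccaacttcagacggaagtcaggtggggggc
The NF-kB-type letters were in 3.62% of all 11725 promoters, in 8.46% of 319 genes that rose and in 3.25% of 338 that fell. The AP-1 letters were in 4.77% of all, 10% of those that rose and 5.92% of those that fell. No marked match overlapped a match to another of the 4 motifs.

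Metal handling changed in both directions. Of 21 iron and copper genes 5 rose and 3 fell. Without intact array 3 the counts were 4 and 1, and after median centring 6 and 1. Slc40a1 (ferroportin), the cell's iron exporter, gave 196, 182 and 253 on the intact and 2909, 2623 and 3538 on the castrated arrays, a change of 3.75 ± 0.48 (adjusted p = 0.000137). Cp (ceruloplasmin), the copper ferroxidase that works with it, gave 109, 104 and 495 on the intact and 2045, 2372 and 1668 on the castrated arrays, a change of 3.36 ± 0.42 (adjusted p = 0.000128). Of 20 zinc genes 3 fell and 1 rose, and all 4 calls held under the 25 changes. After median centring 3 fell and 3 rose. The metallothioneins Mt1 and Mt2, which bind zinc and copper, gave 26083, 21146 and 31435 on the intact and 5497, 5374 and 4896 on the castrated arrays, and 40602, 35559 and 38891 on the intact and 9963, 8453 and 5875 on the castrated arrays. Their changes were -2.30 ± 0.19 and -2.27 ± 0.18 (adjusted p = 1.62e-06 and 7.34e-07). Slc30a2, a zinc exporter into vesicles, gave 2359, 939.5 and 1484 on the intact and 171, 147 and 117 on the castrated arrays, a change of -3.24 ± 0.66 (adjusted p = 0.00633). Slc39a4, a zinc importer, went up, with 726, 512 and 772 on the intact and 2792, 2893 and 2449 on the castrated arrays, a change of 2.01 ± 0.41 (adjusted p = 0.00663). Prostatic fluid is known for its high zinc.

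Some pump subunits fell and some carriers rose. Of 31 channels and pumps 5 fell and 2 rose. There were 5 falls and 1 rise without intact array 3, but 3 falls and 5 rises after median centring. Atp12a, the non-gastric proton-potassium pump, gave 1537, 808 and 1549 on the intact and 25.5, 91.8 and 18.6 on the castrated arrays, a change of -4.55 ± 0.75 (adjusted p = 0.0014). Atp1b3, a beta subunit of the sodium pump, gave 12609, 10250 and 13648 on the intact and 4257, 4094 and 3930 on the castrated arrays, a change of -1.56 ± 0.19 (adjusted p = 8.55e-05). Slc34a2, a phosphate carrier outside that list, gave 67.8, 80.6 and 5.17 on the intact and 959, 819 and 888 on the castrated arrays, a change of 4.02 ± 0.69 (adjusted p = 0.00181). Clca3a2, a calcium-activated chloride channel regulator, changed by 4.25 ± 0.49 (adjusted p = 5.49e-05). Aqp3, a water and glycerol channel typical of basal cells, rose at least 4.93-fold (adjusted p = 0.00131), and the mean of its probe sets gave 0.93 (adjusted p = 0.277).

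Single enzymes of glycolysis, retinoid, glutathione and prostaglandin metabolism changed widely. Pfkfb3, which makes the activator of phosphofructokinase, gave 9703, 9569 and 11450 on the intact and 1240, 1372 and 1265 on the castrated arrays, a change of -2.97 ± 0.27 (adjusted p = 3.66e-06), yet the glycolysis list had 1 rise and 2 falls among 23, and 2 rises and 1 fall after median centring. Retinoic acid enzymes moved in opposite directions. Aldh1a1 gave 3665, 3373 and 1629 on the intact and 633, 535 and 538 on the castrated arrays and Aldh1a3 gave 193, 187 and 122 on the intact and 3513, 5948 and 6781 on the castrated arrays, with changes of -2.23 ± 0.30 and 4.86 ± 0.67 (adjusted p = 0.000219 and 0.000296). Both oxidise retinal to retinoic acid, and Rdh10, which supplies retinal, gave 1056, 2124 and 276 on the intact and 4704, 5073 and 4874 on the castrated arrays, a change of 2.48 ± 0.48 (adjusted p = 0.00454). Of 34 glutathione and antioxidant genes 7 fell and 2 rose, and without intact array 3 the counts were 5 and 1. After median centring the balance turned, to 3 falls and 4 rises. Gsta3, a glutathione transferase, gave 2265, 3181 and 2312 on the intact and 559, 535 and 707 on the castrated arrays, a change of -2.07 ± 0.43 (adjusted p = 0.00681). Of 16 prostaglandin and arachidonate enzymes 3 fell and 1 rose. Hpgd, which inactivates prostaglandins, gave 2052, 2748 and 2321 on the intact and 421, 431 and 502 on the castrated arrays, a change of -2.35 ± 0.39 (adjusted p = 0.0015). Cyp2s1, a cytochrome P450, gave 53.01, 31.9 and 28.5 on the intact and 1038, 1394 and 1307 on the castrated arrays, a change of 4.57 ± 0.43 (adjusted p = 6.62e-06).

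A few sterol synthesis genes rose in luminal cells, and 3 of them fell in basal cells. Of 26 sterol and fatty acid genes 4 rose (Cyp51, Hmgcs1, Msmo1 and Sqle) and 1 fell, and without intact array 3 the counts were 1 and 1. Hmgcs1, an early enzyme of the pathway, gave 4107, 3435 and 3009 on the intact and 4917, 7802 and 7224 on the castrated arrays, a change of 0.90 ± 0.24 (adjusted p = 0.0327), and Sqle (squalene epoxidase) changed by 1.57 ± 0.40 (adjusted p = 0.0266). In basal cells these 2 genes changed by -1.53 and -1.75, and the difference between cell types passed for both (adjusted p = 0.00269 and 0.00742). Without intact array 3 the luminal calls of Hmgcs1 and Sqle were lost (adjusted p = 0.105 and 0.104), as they were without castrated array 2 or 3 (0.163 and 0.0601, 0.151 and 0.167). Cyp51 was lost without intact array 3 (0.0929) and without castrated array 1, 2 or 3 (0.0769, 0.0596 and 0.125). Calls were lost also for Hmgcs1 without intact array 2 (0.0786) and for Sqle without castrated array 1 or intact array 1 (0.0757 and 0.0695). Energy pathways were near or below the background of 5.86%, with 1 of 30 citrate cycle genes, 1 of 41 respiratory chain genes and none of 28 fatty acid oxidation genes passing. After median centring 2 citrate cycle, 1 respiratory chain and 2 fatty acid oxidation genes rose and none fell. Of 13 polyamine genes 1 fell and none rose, and 1 rose and none fell after median centring. The fall was that of Odc1, the rate-limiting enzyme, with 16853, 15443 and 17618 on the intact and 8463, 9188 and 9114 on the castrated arrays, a change of -0.90 ± 0.15 (adjusted p = 0.0017), and after median centring its adjusted p was 0.119. Of 28 amino acid transporters and enzymes of their synthesis 1 rose and 3 fell, and 1 fell without intact array 3.

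Apoptosis regulators, among them members of the BCL2 family, moved in both directions. Of 25 apoptosis genes 5 rose and 2 fell (median 0.71), without intact array 3 the counts were 2 and 2, and after median centring 8 and 2. Bcl2l11 (BIM), which promotes death, gave 1433, 1401 and 1235 on the intact and 5030, 3710 and 4621 on the castrated arrays, a change of 1.70 ± 0.27 (adjusted p = 0.000995). Bok, a pro-apoptotic relative of BAX, gave 84.9, 252 and 10.1 on the intact and 1165, 936 and 1601 on the castrated arrays, a change of 3.78 ± 0.71 (adjusted p = 0.00354). Bcl2, the survival factor, gave 11663, 7987 and 11936 on the intact and 2936, 4413 and 3918 on the castrated arrays, a change of -1.48 ± 0.26 (adjusted p = 0.00189), and its most variable probe set gave -1.52 (adjusted p = 0.355). Growth arrest genes moved both ways, with 3 rises and 4 falls among 23, and 6 rises and 2 falls after median centring. Gadd45a, induced by DNA damage, gave 4741, 3722 and 2997 on the intact and 8535, 10969 and 9287 on the castrated arrays, a change of 1.34 ± 0.21 (adjusted p = 0.000995), and its relative Gadd45g gave 3407, 4807 and 7267 on the intact and 845, 1037 and 1206 on the castrated arrays, a change of -2.25 ± 0.30 (adjusted p = 0.000213). Plk2, a stress-responsive kinase, gave 775, 949.9 and 1366 on the intact and 3104, 5079 and 3638 on the castrated arrays, a change of 1.93 ± 0.30 (adjusted p = 0.000836). Of 33 cell cycle genes 2 rose and 3 fell, and 3 rose and 2 fell after median centring. Mki67, the proliferation marker, gave 1362, 1747 and 854 on the intact and 317, 287 and 307 on the castrated arrays, without overlap but without passing (-2.01 ± 0.78 (adjusted p = 0.157)).

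Among housekeeping lists, falls were found mainly in those of protein synthesis. Cytosolic ribosomal proteins gave 8 falls among 30 (median -0.27), and translation factors 5 among 27 (median -0.20). After median centring no ribosomal gene passed and 2 translation factors rose, and under quantile normalization the medians turned to 0.09 and 0.07. Rps28, of the small ribosomal subunit, gave 36179, 33482 and 41913 on the intact and 21256, 20078 and 19582 on the castrated arrays, a change of -0.87 ± 0.15 (adjusted p = 0.0023), and it gave -0.49 after median centring (adjusted p = 0.156). None of 31 proteasome, 21 aminoacyl-tRNA synthetase, 40 chromatin modifier or 18 clock genes passed, and 1 of 34 lysosome and autophagy genes did. After median centring 4 proteasome, no synthetase, 3 chromatin, 1 clock and 5 lysosome and autophagy genes rose. Of 33 splicing genes 2 rose and 3 fell, 1 rose without intact array 3, and 4 rose and none fell after median centring. Of 22 cytosolic chaperones 1 rose and 3 fell, but 2 rose and 1 fell under quantile normalization and 4 rose and 1 fell after median centring. The plot of lists sets all these shares beside the background.

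**Figure D4:**
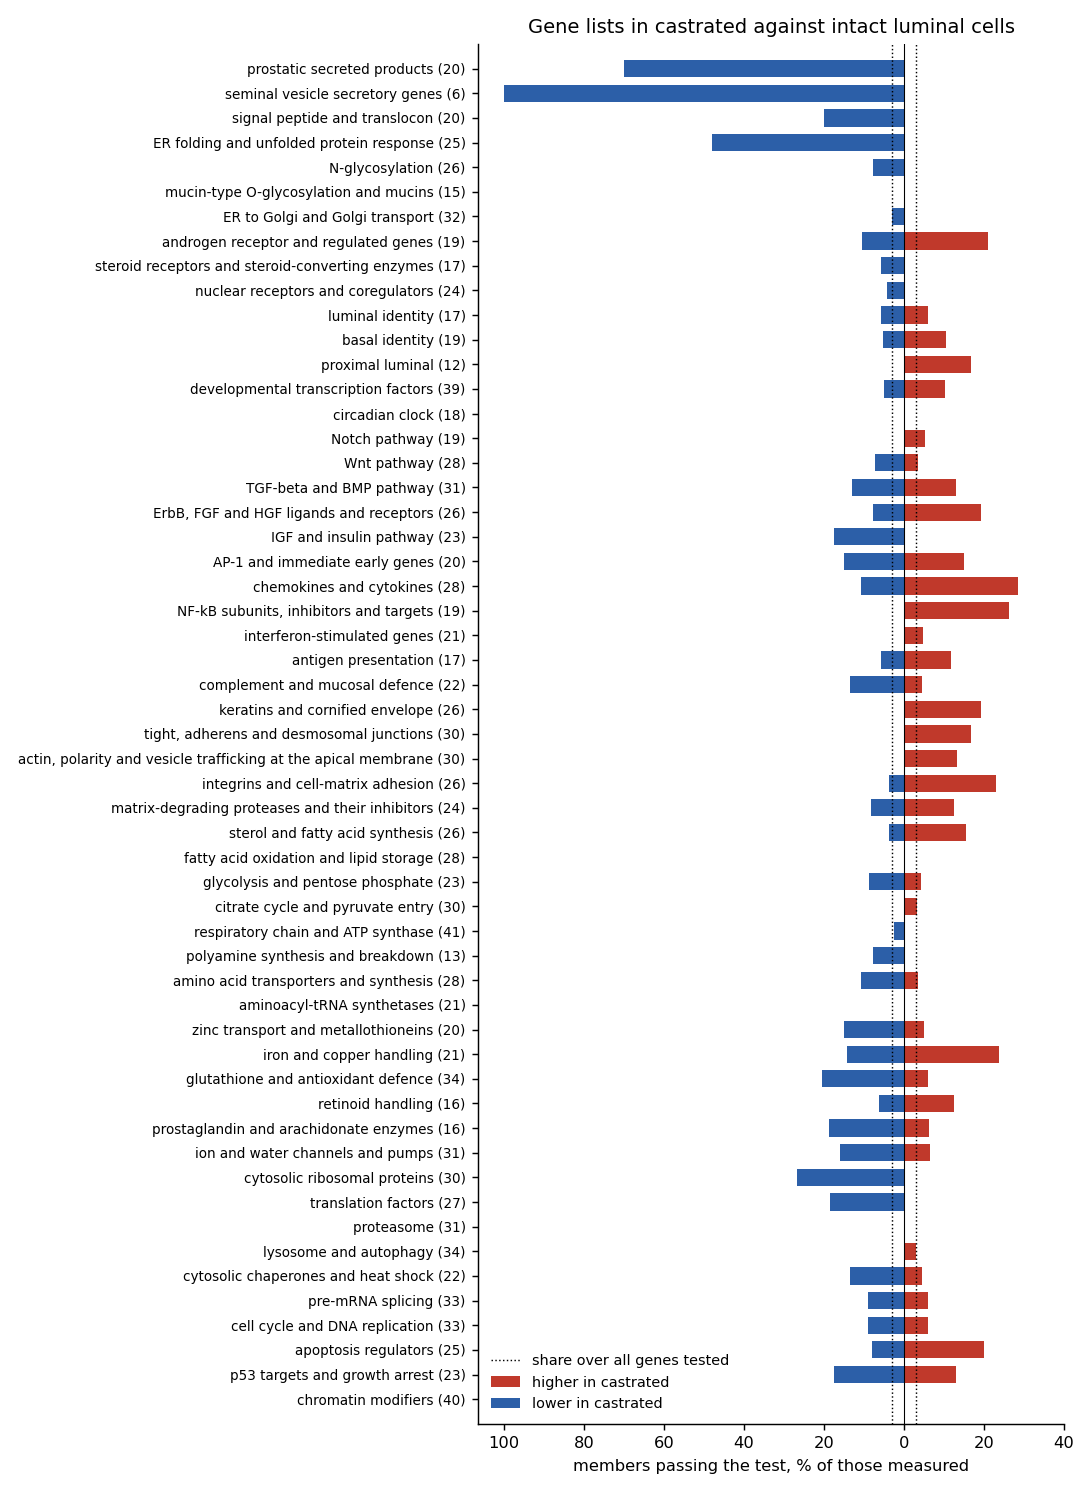
Share of measured members that passed as higher (red, to the right) or lower (blue, to the left) in castrated luminal cells, in % for each of 55 gene lists, with the number measured in brackets. Dotted lines mark the shares over all genes tested, 2.90% higher and 2.96% lower, and the longest bars are the falls of secretory and ER folding genes.

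Most fibroblast markers fell. Of 14 fibroblast markers 9 fell and none rose (median -3.03), and 7 of the calls held under all 25 changes. Sparc, a matrix glycoprotein, gave 1984, 945 and 4316 on the intact and 7.90, 27.2 and 22.1 on the castrated arrays and was at least 40.4-fold lower (adjusted p = 5.12e-06). Dcn (decorin), a proteoglycan of connective tissue, gave 2678, 3314 and 2266 on the intact and 463, 468 and 267 on the castrated arrays, a change of -2.76 ± 0.25 (adjusted p = 3.65e-06). Col1a2 and Col3a1, fibrillar collagen chains, changed by -4.40 ± 0.60 and -4.94 ± 0.68 (adjusted p = 0.000237 and 0.00027). In basal cells Col1a2 changed by -4.39 and Dcn by 0.06. The part of fibroblast RNA in other falls was not tested. Smooth muscle markers gave 1 fall among 8, and none without intact array 3, and endothelial markers none among 9. Hbb-b2, a globin chain of red blood cells, was at least 4.63-fold lower (adjusted p = 0.000733), whereas Alas2, the first enzyme of haem synthesis in red cell precursors and the other erythroid gene measured, was at least 5.16-fold higher (adjusted p = 0.00118).

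Several of the largest changes lay outside the lists. Ccdc3, a secreted coiled-coil protein, gave 10.8, 36.2 and 41.7 on the intact and 1821, 1621 and 2044 on the castrated arrays and was at least 27.1-fold higher (adjusted p = 3.13e-07). Ifit1bl1, an interferon-induced family member, gave 4.50, 60.3 and 7.09 on the intact and 3870, 2777 and 2572 on the castrated arrays, a change of 6.52 ± 1.11 (adjusted p = 0.00174). Olfm4 (olfactomedin), a secreted glycoprotein of intestinal stem cells and neutrophils, gave 55.5, 136 and 85.7 on the intact and 5299, 5709 and 1666 on the castrated arrays, a change of 5.17 ± 0.57 (adjusted p = 3.42e-05). Pnliprp2, a lipase, changed by 4.96 ± 0.81 (adjusted p = 0.00131) and Spsb1, an adaptor of ubiquitin ligases, by 4.15 ± 0.46 (adjusted p = 3.42e-05). Rgs4 and Rgs2, which switch off G-protein signalling, went opposite ways. Rgs4 was at least 11.1-fold higher (adjusted p = 0.000683), and Rgs2 gave 11545, 9767 and 5455 on the intact and 1320, 1002 and 938 on the castrated arrays, a change of -2.97 ± 0.28 (adjusted p = 6.78e-06). Nefh, a neurofilament chain, gave 1738, 1759 and 2953 on the intact and 13.1, 13.9 and 58.8 on the castrated arrays, a change of -5.71 ± 0.57 (adjusted p = 1.14e-05).

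The basal comparison from the same sorts gave 384 calls (2.62%). Of the 424 luminal rises 31 were also basal rises (7.31% of luminal, 18.9% of basal rises). Of the 434 luminal falls 68 were also basal falls (15.7% of luminal, 30.9% of basal falls). Shared rises included H2-Aa, Ivl, Thbs1 and Slc39a4, and shared falls Msmb, Tgm4, Pbsn, Igf1 and Hsp90b1. Opposite calls were made for 13 genes higher in luminal and lower in basal cells, among them Tnfaip2, Cyp51 and Hmgcs1. The reverse held for 5 genes (Copb2, Gstm1, Herpud1, Plagl1 and Socs3). After median centring the luminal falls of Copb2, Gstm1, Herpud1 and Plagl1 did not pass (adjusted p = 0.456, 0.114, 0.0561 and 0.22). With its most variable probe set Gstm1 gave 0.28 in luminal cells.

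The difference between the luminal and the basal change passed for 168 genes (1.15%), of which 134 had passed in luminal cells, 78 as higher and 56 as lower. Metallothioneins and Pfkfb3 were among these falls. Mt1 changed by -2.30 ± 0.19 in luminal and by 0.01 in basal cells (difference -2.31 ± 0.27, adjusted p = 0.000584). Pfkfb3 changed by -2.97 ± 0.27 and 0.31 (difference -3.28 ± 0.38, adjusted p = 0.000584). Among rises, Sdc1 changed by 3.18 ± 0.40 and -0.30 (difference 3.48 ± 0.57, adjusted p = 0.00558) and Cp by 3.36 ± 0.42 and 0.07 (difference 3.29 ± 0.59, adjusted p = 0.0109). Herpud1, a protein of reticulum-associated degradation, fell by 1.24 ± 0.24 in luminal and rose by 1.25 in basal cells (difference -2.48 ± 0.34, adjusted p = 0.00269). Pbsn and Svs2 fell further in basal than in luminal cells, with differences of 3.55 ± 0.62 and 4.22 ± 0.80 (adjusted p = 0.00906 and 0.0143). The number that passed was 65 without castrated luminal array 3, 83 without array 1 and 92 without array 2. It was 27 without an intensity trend and 104 without basal intact array 2.

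**Figure D5:**
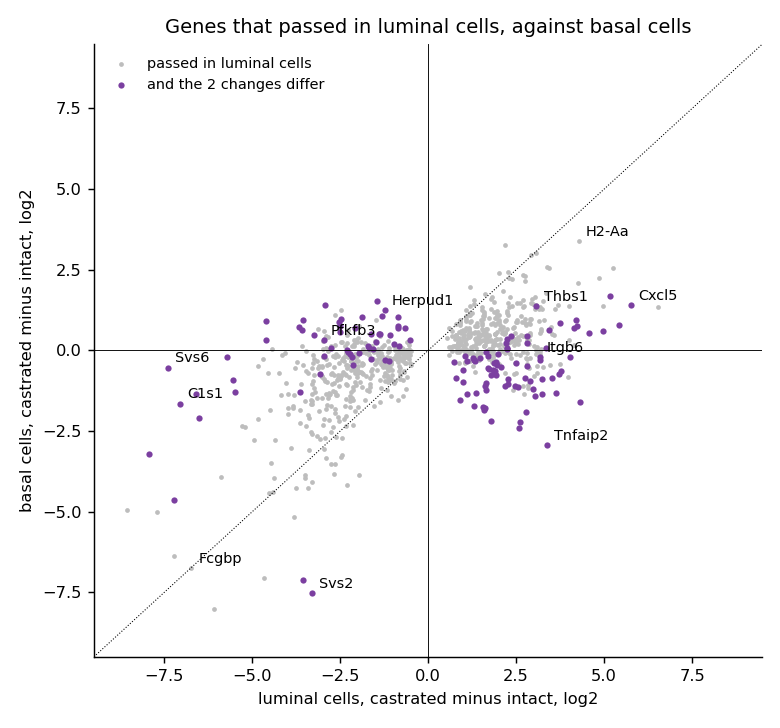
Change after castration in basal cells (y axis, log2) against luminal cells (x axis, log2) for the 858 genes that passed in luminal cells, a point per gene, with the line of equal change dotted. The 134 genes whose changes differed between the cell types are purple, and Tnfaip2 lies lowest in basal cells among the genes labelled on the right.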

How the data were processed

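The authors deposited a signal intensity per probe set. The submitters' processing notes name MAS5 without a version. RNA of sorted cells had been amplified with the NuGEN Pico kit, per the labels' protocols. The deposited intensity values were linear and already scaled, with a mean of 500 on every array after trimming 2% from each end. Array medians were 78.8 to 89.5 on the intact and 60.4 to 64.0 on the castrated luminal arrays. Gapdh 3' to 5' ratios of the luminal arrays were 5.09 to 7.88. Of 45101 probe sets, 64 controls were left out, and those with 1 gene symbol in a given annotation table (34945) entered, leaving 14645 of 18193 genes after the filter. That table gave several symbols for 932 probe sets and none for 9160; Entrez identifiers of 34741 matched the mouse gene table.

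The 4 group means were fitted together on log2(signal + 16) with limma 3.58.1 in R 4.3.3, with an intensity trend and 8 residual degrees of freedom, and p-values were adjusted after Benjamini and Hochberg with a threshold of 0.05. The number of arrays limits the precision. The code was tested on simulated data. A bound of "at least N-fold" sets the brighter group's mean against the higher of the dim gene's own value and the 40th percentile of each array. The members and 61 gene lists were chosen with earlier results of these data known. The genes to name were the 20 largest rises and falls without overlap, up to 5 passing members of a list per direction by adjusted p, 16 fixed genes (13 measured), and 10 per direction by the test of the luminal against the basal change. Genes with provisional symbols were skipped, not every gene the rule allows is printed, and members of small counts, Epcam, Ptprc and the defensin and annexin families were named outside it. Promoter sequences are RefSeq's, the first entry of a gene, on GRCm38.p6. Python 3.11.15 served for tables (pandas 2.3.3) and plots (matplotlib 3.10.9).

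The design record describes 3 sets of mice with paired intact animals, and does not say whether the replicate numbers mark these sets. Same-numbered luminal arrays, intact and castrated, had deviations from group means that correlated between -0.00361 and 0.0235 across genes, so the main model has no block, and a model with the number as a block is an alternative.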

Additional observations from a re-analysis of the deposited data

Results flagged for a closer look

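The castration effect differed between luminal and basal cells, by the interaction test in limma, for 168 genes, and for the genes below among those named. Each value is the luminal minus the basal change on the log2 scale.

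Among secretory genes the difference was -2.56 for Tgm4, 3.55 for Pbsn, -4.72 for Pate14, -5.26 for Defb42, -6.87 for Svs6, -5.52 for Svs3a and 4.22 for Svs2. On the intact basal arrays Svs6 gave 2.50, 197 and 2.30, Svs3a 10.2, 21.7 and 12.7, and Defb42 499, 30.3 and 6.35. Such low basal levels leave little room for a fall, so these differences do not compare responses from like levels. The same limit holds for other luminal falls of genes that were dim in intact basal cells. In the secretory machinery it was -2.48 for Herpud1, -1.62 for Sec61a1, -1.16 for Ssr3, -1.55 for Srpr, -1.95 for Man1a and -1.34 for Copb2. Among signalling and adhesion genes it was 2.21 for Steap4, -4.38 for Igfbp4, 3.50 for Lif, -1.88 for Id3, 3.38 for Itgb6, 1.42 for Itgav, 2.37 for Cd44, 3.48 for Sdc1, 1.71 for Thbs1 and 1.62 for Anxa5.

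Among immune genes it was 4.37 for Cxcl5, 3.24 for Il1rn, 4.13 for Tnfsf10, 6.32 for Tnfaip2, 2.08 for Tnip1, -0.79 for B2m, 4.37 for Reg3g, -5.40 for C1s1, -4.23 for C1ra and -4.65 for Cd52. Among transport genes it was 2.89 for Slc40a1, 3.29 for Cp, -2.31 for Mt1, -2.22 for Mt2, -1.59 for Atp1b3 and 4.22 for Slc34a2. Among metabolic genes it was 3.01 for Cyp51, 2.43 for Hmgcs1, 3.33 for Sqle, -3.28 for Pfkfb3, 2.88 for Rdh10, -1.56 for Gstm1 and 4.03 for Cyp2s1.

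Among apoptosis and growth arrest genes it was 4.43 for Bok, 1.87 for Bcl2l11, -1.74 for Bcl2 and 2.69 for Plk2. For the remaining genes it was -2.82 for Dcn, 4.63 for Ccdc3, 3.48 for Olfm4, 5.94 for Rgs4, 3.46 for Spsb1, -5.49 for Nefh, -2.81 for Rgs2 and -1.90 for Plagl1.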

How the results depend on the processing

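Of the 140 genes named with values or as members of small counts, 129 passed, and 91 of these passed under all 25 single alternatives. With the luminal arrays fitted alone 1215 genes passed. That fit ended the calls of 3 named genes and made 2 others pass. Array weights also made 2 named genes pass. Against 858 called genes, 424 higher and 434 lower, array weights gave 1945 (931 and 1014), no intensity trend 555 (242 higher), and median centring 1021 higher and 252 lower. Leaving out single arrays gave 401 to 984 calls, 176 to 490 higher and 225 to 508 lower. Leaving out all 4 arrays of number 1, 2 or 3 gave 212, 220 and 520 calls (96, 90 and 239 higher, 116, 130 and 281 lower). For the difference between luminal and basal changes (168), no intensity trend gave 27 and the most variable probe set 89. Single arrays left out gave 65 to 163 and numbers left out 6, 0 and 83. The basal count (384) was 202 with array weights, 626 with median centring, 232 with the most variable probe set and 155 without trend. It was 175 to 623 with single arrays left out, and 39 and 22 without number 1 or 2. With the replicate block, the counts were 805, 129 and 318, and the luminal call of Egf was lost and no other named one.

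The signs of 7 genes changed under some alternatives. Xbp1 turned to 0.36 with median centring, 0.13 without luminal castrated array 2, 0.07 without luminal intact array 1, and ranged from -0.20 to 0.09 without the arrays of a number (0.04 without number 1). Epcam turned to 0.35 with the mean of probe sets, 0.32 with median centring, 0.77 with the most variable probe set, 0.40 with quantile normalization, and ranged from -0.17 to 0.030 without the arrays of a number. Krt8 ranged from -0.00281 to 0.26 without the arrays of a number, and Krt18 turned to 0.020 with median centring and 0.41 with quantile normalization. Under quantile normalization both Krt18 and Epcam passed as higher (limma adjusted p = 0.00828 and 0.04999). With the most variable probe set Srpr turned to 0.37, Gstm1 to 0.28 and Klf5 to -1.13, and with the mean of probe sets Klf5 turned to -0.56. The cause was not tested. The median of all genes was -0.09, and 0.04 with quantile normalization and 0.29 with median centring.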
